A study of Mus musculus with 9 samples.

Results

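Regulators of G protein signalling (RGS) were examined in mouse aorta through 10 genes chosen by symbol, Rgs2, Rgs3, Rgs4, Rgs5, Rgs7bp, Rgs10, Rgs12, Rgs14, Rgs16 and Rgs19, out of 37668 genes in the deposited table. All 10 were found. The tissue came from 9 male mice aged 90 days on the background 129T2SvEmsJ:C57Blk/6J, in 3 groups of 3 mice. All mice carried the floxed AT1ar allele, which is the gene Agtr1a for the angiotensin II type 1a receptor. The Sm22Cre group also had the Sm22-Cre transgene, in which Cre is driven by the Tagln (SM22) promoter of smooth muscle. The Cdh5Cre group had Cdh5-Cre, which uses the Cdh5 promoter of endothelial cells. The floxed group had no Cre, and no group had Cre without the floxed allele. The series title names Marfan syndrome, but the labels give no fibrillin genotype for these mice.

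The values are the authors' group values in FPKM (sequenced fragments relative to transcript length and library size), 1 value per group of 3 mice. The spread between mice and the sequencing depth are unknown. No test was made, and every difference below lacks a replicate check. In whole tissue, fewer cells of a type and less RNA per cell cannot be told apart. The targeted gene Agtr1a was at 1.21 FPKM in Sm22Cre, 1.32 in Cdh5Cre and 1.75 in floxed, a low level in each group. The 12 smooth muscle markers, Tagln and Myh11 among them, summed to 13718 FPKM in Sm22Cre, 16439 in Cdh5Cre and 14008 in floxed, and none of them was listed at 0.

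RGS proteins shorten G protein signalling. A receptor such as the angiotensin receptor loads the alpha subunit of a G protein with GTP, and most RGS proteins bind that loaded subunit and speed its return to the GDP-bound state. In the arterial wall they act on the Gq and Gi signals of vasoconstrictor receptors. RGS2 prefers Gq subunits and is known for its role in blood pressure in mice, and RGS5 is a marker of pericytes and of arterial smooth muscle.

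The stretches before the start of 5 genes are shown. Of these genes, Rgs5, Rgs4, Rgs2 and Rgs7bp were lower in Cdh5Cre than in floxed and Rgs10 was higher. Rgs19, also higher, had 3 RefSeq starts and is not shown. The stretches belong to the members with a single RefSeq start and 10 FPKM or more in at least 1 group. Each runs 5′ to 3′ along the gene's strand, from 250 to 21 bases before the start, and was taken from RefSeq on GRCm38.p6, a later build than the mm9 of the expression table. The positions are chr1:169655251-169655480 (plus strand) for Rgs5, chr1:169747663-169747892 (minus) for Rgs4, chr1:144004170-144004399 (minus) for Rgs2, chr13:105054951-105055180 (minus) for Rgs7bp and chr7:128418193-128418422 (minus) for Rgs10. Capitals mark matches to any of 5 motifs searched on both strands.

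Rgs5: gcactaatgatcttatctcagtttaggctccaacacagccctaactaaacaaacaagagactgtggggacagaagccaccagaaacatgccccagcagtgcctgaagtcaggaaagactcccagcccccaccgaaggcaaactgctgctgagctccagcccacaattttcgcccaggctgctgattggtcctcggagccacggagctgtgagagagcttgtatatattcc
Rgs4: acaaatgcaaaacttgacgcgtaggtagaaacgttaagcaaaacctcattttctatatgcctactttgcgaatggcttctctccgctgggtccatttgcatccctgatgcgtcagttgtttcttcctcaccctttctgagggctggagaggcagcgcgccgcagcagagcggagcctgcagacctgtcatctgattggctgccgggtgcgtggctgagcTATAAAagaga
Rgs2: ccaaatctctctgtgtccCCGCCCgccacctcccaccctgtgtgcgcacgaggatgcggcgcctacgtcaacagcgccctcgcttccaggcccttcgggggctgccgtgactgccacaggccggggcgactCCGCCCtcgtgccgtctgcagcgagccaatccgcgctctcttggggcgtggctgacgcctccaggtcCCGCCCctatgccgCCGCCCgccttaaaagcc
Rgs7bp: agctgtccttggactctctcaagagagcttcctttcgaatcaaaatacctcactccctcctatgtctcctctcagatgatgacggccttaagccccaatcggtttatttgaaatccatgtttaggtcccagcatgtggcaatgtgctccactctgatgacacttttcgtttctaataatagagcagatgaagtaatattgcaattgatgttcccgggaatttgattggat
Rgs10: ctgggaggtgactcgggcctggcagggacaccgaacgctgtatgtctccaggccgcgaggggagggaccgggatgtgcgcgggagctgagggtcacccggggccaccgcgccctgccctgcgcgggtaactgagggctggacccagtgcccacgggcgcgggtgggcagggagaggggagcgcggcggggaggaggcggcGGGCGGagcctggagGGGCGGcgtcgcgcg

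The capitals in Rgs2 and Rgs10 are GC boxes (GGGCGG, or CCGCCC where the match is on the other strand), and those in Rgs4 are a TATA box (TATAAA). Rgs2 had 4 GC boxes, between 232 and 33 bases before its start, and Rgs10 had 2. The TATA box of Rgs4 lay 31 to 26 bases before its start. Of 32851 RefSeq windows of the same length, 29.8% held a GC box and 11.8% a TATA box. None of the 5 windows held a CArG box, the binding motif of serum response factor, a CRE (TGACGTCA) or an AP-1 motif (TGANTCA), which were present in 1.41%, 1.28% and 6.34% of all windows. The windows also differed in composition. Rgs10 and Rgs2 had a GC content of 77.0% and 70.9% with 27 and 25 CpG dinucleotides, whereas Rgs4, Rgs5 and Rgs7bp had 52.2%, 53.0% and 43.0% with 12, 4 and 5, beside a median of 51.7% and 5 over all windows. Rgs5 and Rgs7bp had none of these matches. A link between these motifs and the group differences was not tested, and short exact matches in 5 windows could not decide it.

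Among the 10 genes, Rgs5 was the most abundant in all 3 groups. In floxed it stood above 97.0% of the 14225 genes analysed, those with 1 FPKM or more in at least 1 group. It made up 52.0% of the summed FPKM of the 10 genes in Sm22Cre, 37.5% in Cdh5Cre and 48.8% in floxed. That sum was 358.3 FPKM in Sm22Cre, 271.2 in Cdh5Cre and 348.1 in floxed. Rgs4 and Rgs3 came next. Rgs4 was the higher of these in Sm22Cre and floxed, and Rgs3 in Cdh5Cre, but no spread is known that would separate them. Rgs2, Rgs7bp, Rgs10 and Rgs19 lay between 5.97 and 24.1 FPKM, and Rgs12 between 4.56 and 5.74. Rgs14 and Rgs16 were under 1 FPKM in every group and were left out of the counts below, which cover the other 8.

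**Figure D1:**
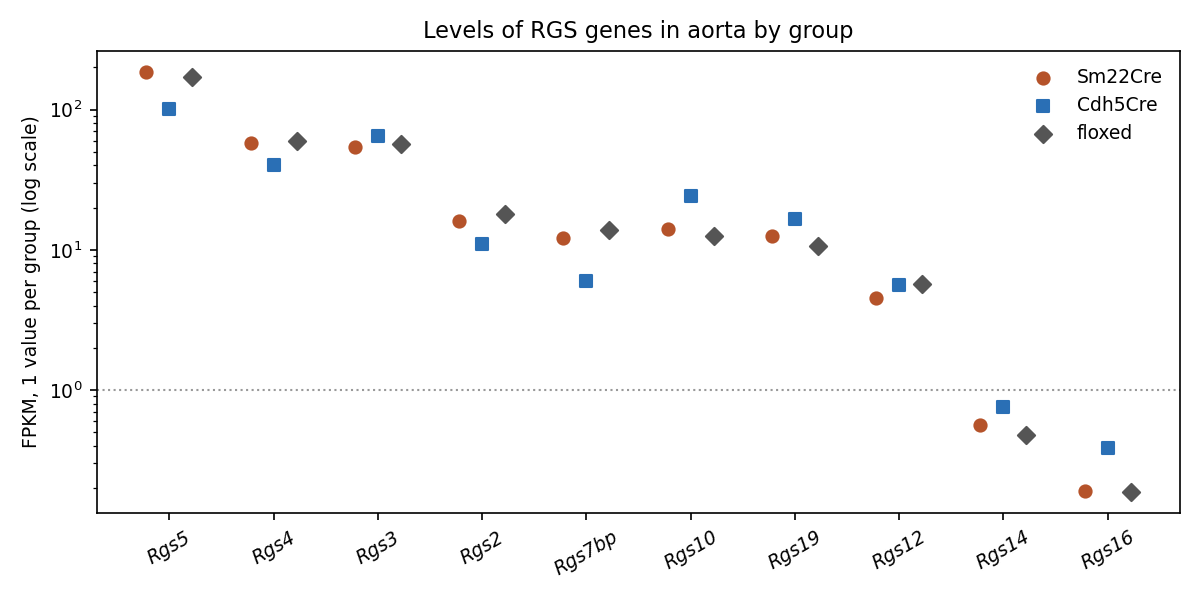
FPKM (log scale) of the 10 RGS genes, 1 value per group, with Sm22Cre as circles, Cdh5Cre as squares and floxed as diamonds; no error can be drawn. The dotted line is at 1 FPKM. As deposited, the Cdh5Cre value is the lowest of the 3 for Rgs5, Rgs4, Rgs2 and Rgs7bp and the highest for Rgs3, Rgs10, Rgs19, Rgs14 and Rgs16.

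The first comparison, Cdh5Cre against floxed, concerned endothelial loss of the receptor. Differences are given as log2 ratios of (FPKM + 1), which understate those of low genes, and a gene was counted at 2-fold and at 1.5-fold on this scale. Of the 8 genes, 1 was lower by 2-fold or more, beside 0.703% of all genes, and none was higher by as much, beside 1.19%. At 1.5-fold, 3 were lower and 2 higher, beside 6.02% and 8.33% of all genes. In all, 5 were lower and 3 higher, beside 48.2% and 51.7%, and the median log2 ratio was -0.29, beside 0.02 over all genes.

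Of the R4 subfamily, whose proteins act on Gq and Gi, the transcripts of Rgs5, Rgs4 and Rgs2 had lower values in Cdh5Cre. Those of Rgs3, Rgs16 (under 1 FPKM) and Rgs18, which is outside the 10, had higher ones. The R4 genes Rgs1 (lower), Rgs8 and Rgs13 (both higher), also outside the 10, were under 1 FPKM in every group. Rgs5 (ENSMUSG00000026678, mm9 chromosome 1, 171585632 to 171625944) was at 101.6 FPKM in Cdh5Cre, against 170.0 in floxed, which is 40.2% lower, with a log2 ratio of -0.74. Rgs4 (ENSMUSG00000038530, chromosome 1, 171671608 to 171677773), its neighbour on the other strand with 45.7 kb between their listed loci, was at 40.3 FPKM in Cdh5Cre, against 59.6 in floxed, 32.3% lower. Its log2 ratio of -0.55 was just short of 1.5-fold, and its status in the authors' table was FAIL in all 3 pairs of groups. The ratio of Rgs5 to Rgs4 was 2.52 in Cdh5Cre and 2.85 in floxed, so the pair was lower by similar factors.

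Rgs2 (ENSMUSG00000026360, chromosome 1, 145846468 to 145851291), the Gq-preferring member, was at 11.0 FPKM in Cdh5Cre, against 17.9 in floxed, 38.7% lower with a log2 ratio of -0.66. Rgs3 (ENSMUSG00000059810, chromosome 4, 62220881 to 62364052), a larger R4 member with several isoforms, was at 65.0 FPKM in Cdh5Cre, against 57.1 in floxed. It thus did not share the lower values of Rgs2, Rgs4 and Rgs5. Its status was FAIL in this pair, its log2 ratio was 0.18, and this turned to -0.11 when each group was scaled to the same sum, which sets the median of all genes at -0.25. Rgs16 (ENSMUSG00000026475, chromosome 1, 155587479 to 155592598), a further R4 member, was at 0.38 FPKM in Cdh5Cre and 0.19 in floxed.

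Smooth muscle and pericyte markers, the cells RGS5 is known from, were about as often higher as lower. Of the 12 smooth muscle markers, 6 were higher and 6 lower in Cdh5Cre, beside 51.7% and 48.2% of all genes, with a median log2 ratio of 0.02. Of the 10 pericyte markers analysed, which include Pdgfrb, Kcnj8 and Abcc9, 5 were higher and 5 lower with a median of 0.01, and all 11 listed summed to 675.0 FPKM in Cdh5Cre and 689.8 in floxed, none of them at 0. With the length and GC trend described below removed, the medians were -0.10 for smooth muscle and -0.04 for pericyte markers.

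The largest difference among the 10 genes was in Rgs7bp (ENSMUSG00000021719, chromosome 13, 105737233 to 105845010), whose protein is not itself an RGS but anchors complexes of R7 subfamily RGS proteins with the G protein subunit encoded by Gnb5 at the membrane. Rgs7bp was at 5.97 FPKM in Cdh5Cre, against 13.9 in floxed, 57.1% lower with a log2 ratio of -1.10. The R7 gene Rgs7, outside the 10, was also lower, at 6.55 FPKM in Cdh5Cre and 11.9 in floxed (log2 ratio -0.77). Their partner Gnb5 was at 8.86 FPKM in Cdh5Cre and 8.61 in floxed. As deposited, the levels of Rgs7 and Rgs7bp were therefore below that of Gnb5 in Cdh5Cre and above it in floxed. With the length and GC trend removed, the log2 ratios were -0.64 for Rgs7bp and -0.12 for Gnb5, so this order may not hold for Rgs7bp. The other R7 genes were lower in level: Rgs11 was at 4.40 FPKM in Cdh5Cre and 4.09 in floxed, Rgs6 at 1.79 and 1.89, and Rgs9 at 0.19 and 0.11 in the same order. Rgs9bp, which encodes another anchor of R7 proteins, was at 0.02 FPKM in Cdh5Cre and 0.06 in floxed. Rgs7 and Rgs7bp are best known from neurons. The 7 Schwann cell and neuronal markers analysed of 12 were all higher in Cdh5Cre, beside 51.7% of all genes. They were opposite in direction to both genes, with a median of 0.45. The whole list summed to 33.9 FPKM in Cdh5Cre and 19.0 in floxed, and none of it was listed at 0.

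Rgs10 and Rgs19, which act mainly on Gi subunits and are found in blood and immune cells among others, were higher in Cdh5Cre. Rgs10 (ENSMUSG00000030844, chromosome 7, 135517135 to 135562272), of the R12 subfamily, was at 24.1 FPKM in Cdh5Cre, against 12.6 in floxed, 1.91-fold with a log2 ratio of 0.88. Rgs19 (ENSMUSG00000002458, chromosome 2, 181423124 to 181428682), of the RZ subfamily, was at 16.5 FPKM in Cdh5Cre, against 10.6 in floxed. Its log2 ratio of 0.59 was just past 1.5-fold and was 0.33 with each group scaled to the same sum. Rgs18, the R4 gene of platelets and their precursors, was at 6.40 FPKM in Cdh5Cre and 1.15 in floxed, with a log2 ratio of 1.78.

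Markers of platelets, lymphoid cells and red cells were higher in the same group. Of the 12 platelet markers, 11 were higher and 10 reached 1.5-fold, beside 51.7% and 8.33% of all genes. Their summed levels were 311.7 FPKM in Cdh5Cre and 83.6 in floxed. All 6 lymphoid markers analysed of 12 were higher, with 31.0 FPKM in Cdh5Cre and 16.8 in floxed over the whole list. The 5 erythroid markers analysed of 8 were all higher, with 25454 and 4020. Macrophage markers were divided: 6 of 10 were higher and 4 lower, beside 51.7% and 48.2% of all genes, with sums of 375.9 FPKM in Cdh5Cre and 332.2 in floxed and a median log2 ratio of 0.18. Of these 10 none was higher by 1.5-fold, beside 8.33% of all genes. Adgre1 and Mrc1 were lower by as much, beside 6.02%, at log2 ratios of -0.59 and -0.75. With the length and GC trend removed, these 2 ratios were -0.48 and -0.38, short of 1.5-fold. Markers of other cell types were also mostly higher. The 14 endothelial markers had 13 higher and a median of 0.47, with sums of 601.0 FPKM in Cdh5Cre and 397.2 in floxed. The 12 fibroblast markers had 10 higher and a median of 0.51, with 6944 and 5201 in the same order. The 14 heart muscle markers had 13 higher and a median of 0.61, with 1603 and 1026, and the 9 adipocyte markers analysed of 10 had 7 higher and a median of 0.18, with 666.3 and 581.8. With the length and GC trend removed, the medians were 1.08 for platelet, 0.40 for lymphoid, 2.1 for erythroid, 0.50 for endothelial, 0.48 for fibroblast, 0.25 for heart muscle, -0.04 for adipocyte and -0.23 for macrophage markers. None of these markers was listed at 0, and their part in the values of Rgs10, Rgs19 and Rgs18 was not tested.

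The remaining members have several domains besides the RGS domain. Rgs12 (ENSMUSG00000029101, chromosome 5, 35292094 to 35382293), a scaffold of the R12 subfamily, was at 5.65 FPKM in Cdh5Cre and 5.74 in floxed, with a log2 ratio of -0.02. Rgs14 (ENSMUSG00000052087, chromosome 13, 55471093 to 55486048), its close relative, was at 0.76 and 0.47 FPKM in the same order. The listed loci of Rgs3, Rgs10 and Rgs12 were each shared with 1 other gene, of which the one at Rgs10, Gm15503, was at 0.03 FPKM in Cdh5Cre and 0.08 in floxed and the others were listed at 0.

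Across the table, differences in this comparison ran with the transcripts' length and GC content. Over 12317 genes, which are not independent of each other, the log2 ratio of Cdh5Cre over floxed had a Spearman's rho of -0.58 with the length of the longest coding transcript and 0.53 with its GC content. Rgs7bp, with 7077 bases and 42.6% GC, and Rgs5, with 4096 bases and 41.1% GC, were on the long and AT-rich side. Rgs10, with 880 bases, and Rgs19, with 1511, were on the short side. Rgs2 had 3021 bases and 43.6% GC, and Rgs4 had 2941 and 44.0%. Rgs3, with 4698 bases, and Rgs12, with 5472, were longer than Rgs5 but had more GC, at 54.3% and 54.5%. Their log2 ratios were 0.18 and -0.02, as given above. With the length and GC trend removed, the log2 ratios were -0.64 for Rgs7bp, -0.48 for Rgs2, -0.42 for Rgs5 and -0.39 for Rgs4. They were 0.47 for Rgs10, 0.30 for Rgs19, 0.20 for Rgs3 and 0.03 for Rgs12, the last 2 little changed. No member then reached 2-fold, beside 0.625% of genes, and 1 of 8, Rgs7bp, reached 1.5-fold, beside 4.8% of genes. Rgs7 and Rgs18 changed little, to -0.77 and 1.88.

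**Figure D2:**
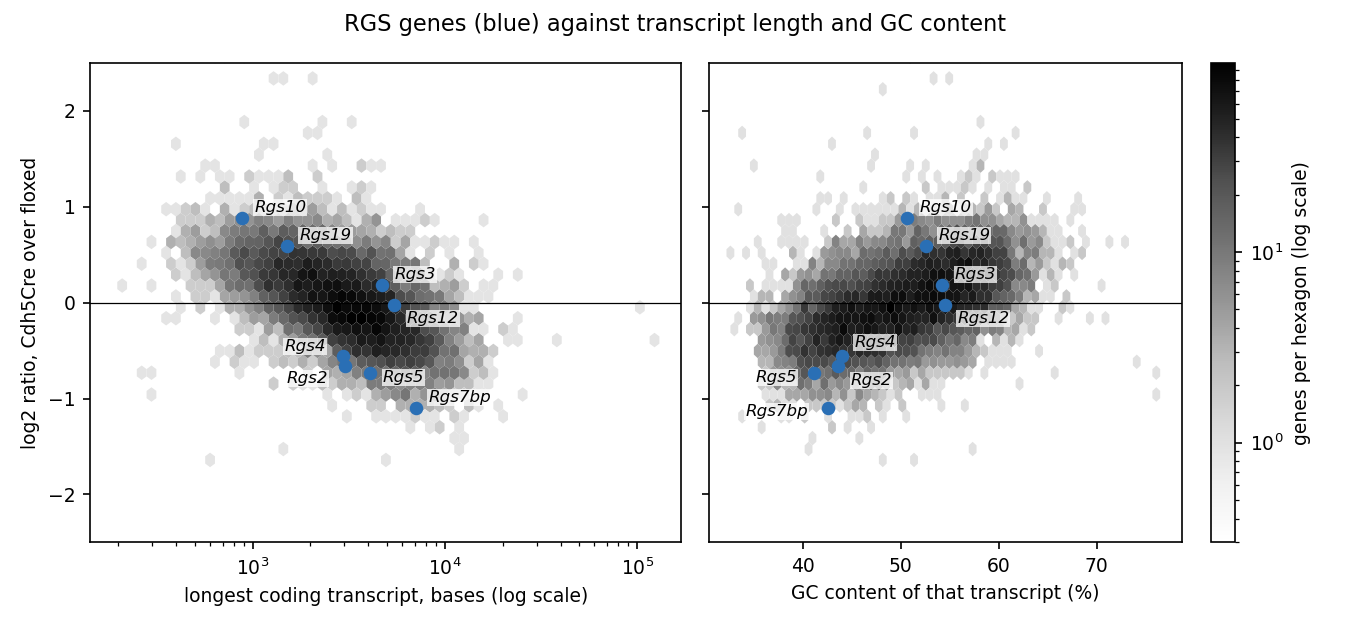
Log2 ratio of (FPKM + 1), Cdh5Cre over floxed, of 12317 genes with a coding transcript (grey hexagons, darker for more genes) against transcript length (left, log scale) and GC content (right); blue points are the 8 RGS genes analysed, and genes beyond 2.5 on the vertical axis are not shown. Rgs10 and Rgs19 lie at the short end above 0, and Rgs7bp lies below most genes of its length.

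The second comparison, Sm22Cre against floxed, concerned receptor loss in smooth muscle, the main cell type of the aortic wall. None of the 8 genes was higher or lower by 1.5-fold, beside 0.619% and 0.921% of all genes. Their log2 ratios lay between -0.28 and 0.21, with a median of -0.06. Of the 8, 3 were higher and 5 lower, beside 52% and 47.9% of all genes. Rgs5 was at 186.2 FPKM in Sm22Cre, against 170.0 in floxed, and Rgs4 at 57.6 against 59.6. Rgs3 was at 54.5 FPKM in Sm22Cre and 57.1 in floxed, and Rgs2 at 16.0 and 17.9 in the same order. The members that were highest and lowest relative to floxed here were Rgs19, at 12.5 FPKM in Sm22Cre and 10.6 in floxed, and Rgs12, at 4.56 and 5.74. Rgs7bp was at 12.1 FPKM in Sm22Cre and 13.9 in floxed, and Rgs10 at 14.1 and 12.6. Rgs14 was at 0.57 and 0.47 FPKM and Rgs16 at 0.19 in both groups. Rgs18 was again higher, at 2.30 FPKM in Sm22Cre and 1.15 in floxed (log2 ratio 0.62), which is past 1.5-fold. Of the 12 platelet markers 11 were higher and 5 reached 1.5-fold, with sums of 128.6 FPKM in Sm22Cre and 83.6 in floxed. The 5 erythroid markers analysed were all higher by 2-fold, beside 43 of all 14225 genes analysed, with sums of 9029 and 4020 in the same order. All 14 heart muscle markers were lower, 12 of them by 1.5-fold, with a median of -1.11 and sums of 462.1 and 1026. The part of these markers in the value of Rgs18 was not tested. Over the 12317 genes with a coding transcript, length and GC content explained 3.86% of the variance of the log2 ratios here. In Cdh5Cre against floxed they explained 45.7%.

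**Figure D3:**
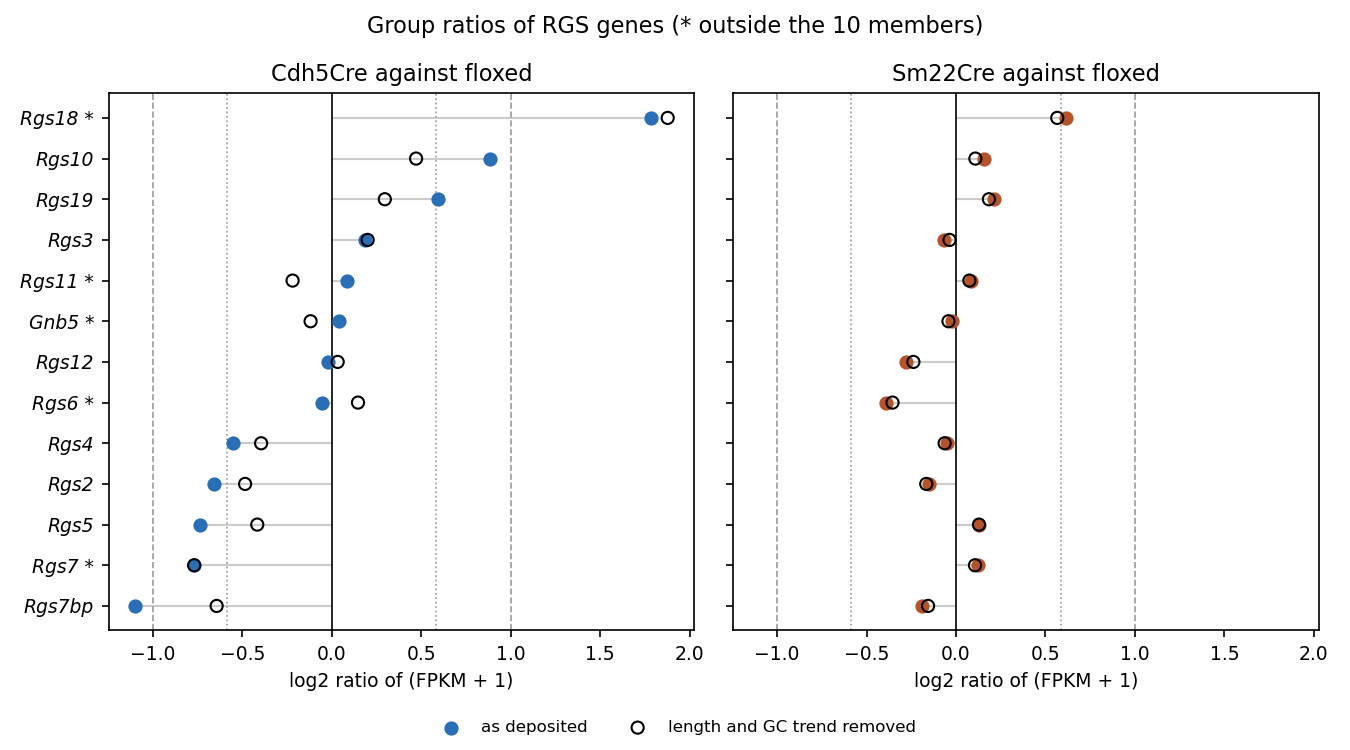
Log2 ratios of (FPKM + 1) against floxed for the 8 RGS genes analysed and 5 related genes (starred), with Cdh5Cre on the left (blue) and Sm22Cre on the right (orange); open circles are the ratios with the length and GC trend removed, and dotted and dashed lines mark 1.5-fold and 2-fold. Rgs7bp passes 2-fold at -1.10 on the left and lies at -0.19 on the right, and Rgs18 is the highest in both.

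The third comparison set Sm22Cre against Cdh5Cre directly. None of the 8 genes reached 2-fold in either direction, beside 0.401% higher and 1.23% lower over all genes. By 1.5-fold, 2 were higher in Sm22Cre, beside 4.34% of all genes, and 1 was lower, beside 7.57%. Rgs7bp was 2.02-fold higher as a plain ratio, at 12.1 FPKM in Sm22Cre and 5.97 in Cdh5Cre, with a log2 ratio of 0.91. Rgs5 was at 186.2 FPKM in Sm22Cre and 101.6 in Cdh5Cre, a log2 ratio of 0.87, and Rgs10 at 14.1 and 24.1, a log2 ratio of -0.73. Rgs2 and Rgs4 had log2 ratios of 0.51 and 0.50. With the length and GC trend removed, none of the 8 reached 1.5-fold, beside 3.95% of genes, and Rgs5 was the nearest at 0.55. The 3 comparisons use each group in 2 of them, so they are not separate observations.

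Of 15 other genes, which are further RGS genes and their partner Gnb5, 14 were in the table and 5 were analysed. The rest were under 1 FPKM in every group, with Rgs17 at 0.45, 0.46 and 0.44 FPKM and Rgs1, a gene of lymphocytes, at 0.24, 0.29 and 0.43 FPKM in Sm22Cre, Cdh5Cre and floxed. Several sit beside members on chromosome 1, which holds 11 of the 24 genes found from both lists. Rgs18 lies in the same stretch as Rgs2, with Rgs13 and Rgs1 between them. Rgs18 was higher in Cdh5Cre than in floxed while Rgs2 was lower, and Rgs13 and Rgs1 were under 1 FPKM.

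The next list held 14 analysed genes of other proteins with an RGS homology domain. None was higher by 1.5-fold in Cdh5Cre than in floxed, beside 8.33% of all genes. Lower by as much, beside 6.02%, was 1 gene, the sorting nexin gene Snx13. It was at 7.00 FPKM in Cdh5Cre and 12.2 in floxed (log2 ratio -0.73, and -0.27 with the trend removed). Snx13 had the status FAIL in all 3 pairs of groups, and so did others of this list, among them its 2 most abundant genes. The most abundant were Arhgef1, which couples G12/13 to RhoA, at 93.8 FPKM in Sm22Cre, 105.8 in Cdh5Cre and 79.0 in floxed, and the receptor kinase gene Grk2, at 53.7, 54.8 and 51.0. None of these 14 reached 1.5-fold in Sm22Cre against floxed, beside 0.619% higher and 0.921% lower over all genes. Of the 11 G alpha genes analysed, the targets of RGS proteins, 8 were lower and 3 higher in Cdh5Cre than in floxed. Over all genes 48.2% were lower and 51.7% higher. The median log2 ratio of the 11 was -0.14, beside 0.02 over all genes. Gnai1 alone reached 1.5-fold, beside 6.02% of all genes lower by as much. It was at 31.2 FPKM in Cdh5Cre and 48.0 in floxed (log2 ratio -0.61, and -0.40 with the trend removed). The most abundant G alpha genes were Gnas, at 469.0 FPKM in Sm22Cre, 492.7 in Cdh5Cre and 481.4 in floxed, and Gnai2, at 214.0, 258.5 and 224.1. Gnaq was at 18.2, 13.2 and 18.9 FPKM and Gna11 at 44.1, 42.7 and 46.6 in the same order. None of the 11 reached 1.5-fold in Sm22Cre against floxed, beside the same shares of all genes as given above for this pair.

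The genes most like the members with the largest differences were found by distance in the plane of the log2 ratios of Cdh5Cre and of Sm22Cre over floxed, which rests on 3 group values. For Rgs7bp they were Phf20, Ago2 and Fam126b, at distances of 0.01, 0.02 and 0.03, and 21 genes lay within 0.1. For Rgs10 they were Cldn10, Rps19bp1 and Tubb2b, each within 0.02, and 67 genes lay within 0.1.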

How the data were processed

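Poly-A RNA from frozen aorta was sequenced as stranded paired-end libraries, per the labels' protocols. Build mm9, Cufflinks 1.3.0, TopHat2 2.0.8, SAMtools 0.1.7 and Bowtie2 2.1.0 are named by the submitters' processing notes, without roles. The annotation and strand setting are not given in the sources used here. The deposited table gives the authors' FPKM as 1 value per group for 37668 genes in 3 pairs of groups, with a status. Depth is unknown, and limma, planned for values per library, could not be used.

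Symbols came from GENCODE M21 (32638 genes). Starts were taken as 0-based, since end minus start equalled the annotated length for 13791 genes, and 1 was added. The 7 genes with status HIDATA were removed and genes at 1 FPKM or more in at least 1 group were analysed. Genes with status FAIL were kept, markers such as Myh11 and Tagln among them. Log2 ratios used a pseudocount of 1. The length and GC trend was a cubic surface over 12317 genes, tested on simulated data (Python 3.11.15, pandas 2.3.3). A planned comparison of protein sequences was not made.

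The members, gene lists, motifs and size rules were chosen with earlier results of these data known. All members were named. Of the other RGS, RGS homology and G alpha lists, genes at 1.5-fold in a comparison or among the 2 most abundant were named. Cell type markers were named only as examples. Values of Rgs1, Rgs11, Rgs6, Rgs9, Rgs9bp, Rgs17, Gnaq, Gna11, Adgre1 and Mrc1 were added after they were seen. So were the directions of Rgs8 and Rgs13. Alternatives covered pseudocount, filter, centring, quantile normalization, trend removal, status and, chosen after seeing the data, scaling to equal sums.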

Additional observations from a re-analysis of the deposited data

How the results depend on the processing

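Each of the 24 log2 ratios of members kept its side of 1.5-fold with a pseudocount of 0.1 or 0.01, without a filter and with a filter at 5 FPKM. With the length and GC trend removed, 7 fell below it, as did 1 with median centring, while 2 passed it with quantile normalization, and 3 passed and 2 fell below with equal sums. In Cdh5Cre against floxed, members lower by 2-fold became 0 with the trend removed and 2 with scaling of each group to equal sums, which sets the median of all genes at -0.25. Members higher by 1.5-fold became 1 with median centring or equal sums and 0 with the trend removed. Members lower by 1.5-fold became 1 with the trend removed and 4 with quantile normalization or equal sums. In Sm22Cre against Cdh5Cre, members higher by 2-fold became 1 with either smaller pseudocount or quantile normalization and 2 with equal sums. Members higher by 1.5-fold became 0 with the trend removed, 3 with quantile normalization and 4 with equal sums. Members lower by 1.5-fold became 0 with the trend removed and with equal sums.

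Over the other RGS, RGS homology and G alpha lists, genes lower by 1.5-fold in Cdh5Cre than in floxed became 1 with the trend removed. They became 2 with status OK alone, 4 with quantile normalization and 12 with equal sums. In Sm22Cre against floxed, genes higher became 2 with either smaller pseudocount or equal sums and 0 with the trend removed, and genes lower became 1 with either smaller pseudocount. In Sm22Cre against Cdh5Cre, genes higher became 5 with either smaller pseudocount, 3 with quantile normalization, 1 with the trend removed or status OK alone, and 12 with equal sums. The cause was not tested. No replicate could be left out, and no paired analysis was possible because the table holds group values. Unknown depth limits the genes under 1 FPKM most.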
